A study of Mus musculus with 7 samples.

Results

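The 42 genes described here encode parts of the kinetochore, the spindle assembly checkpoint and the mitotic spindle. They were taken as a fixed list of symbols, chosen with earlier results of these data known. Every probe set that the platform annotation assigned to exactly 1 of them was used. This gave 102 of the 34945 probe sets with 1 gene on the array (42 of 18193 genes). RNA came from granule neuron precursors, the dividing cells that form cerebellar granule neurons, sorted by flow cytometry for a Nestin-CFP reporter into a Nestin-positive fraction (4 arrays, replicates 1, 3, 4 and 5) and a Nestin-negative fraction (3 arrays, replicates 1, 4 and 5). Mice of both fractions had the genotype Math1-Cre/Ptc-loxp/Nestin-CFP, so that Ptch1, which encodes the receptor that holds Hedgehog signalling off, was removed wherever Math1-Cre had acted, which is mainly the granule neuron lineage, and cells with an intact Ptch1 were not compared. The sample labels give postnatal day 7 and medulloblastoma as the tissue, whereas the series text gives postnatal day 4. The question is what sets the Nestin-expressing precursors apart. Nothing in the labels ties each sample to an animal of its own, so p-values measure the spread between these samples, part of which may be technical.

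A kinetochore is a protein assembly built on the centromere of each chromosome. Its inner layer marks the centromere and holds the structure there, its outer layer grips spindle microtubules, and the checkpoint proteins that gather on it delay separation of the sister chromatids until every kinetochore is attached. Many of these genes are transcribed mostly from late S phase to mitosis, whereas some subunits, such as those shared with other processes, are made more evenly through the cycle. In the early postnatal cerebellum the precursors divide in response to Sonic hedgehog and leave the cycle as they differentiate.

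The values are MAS5 signals on a linear scale, and the deposited values of each array have a trimmed mean of 500. Nes had signals of 478, 829, 722 and 543 in Nestin-positive cells, against 179, 174 and 217 in Nestin-negative cells (log2 difference 1.73 ± 0.21 SE, limma, adjusted p = 0.0282), which checks the sort. All 12 granule neuron precursor markers lay at or above the array median on all 7 arrays, as did 9851 of all 11089 genes tested. Of these 12, 6 had a positive and 6 a negative log2 difference. Their summed signals were 77924.5 to 94993 in Nestin-positive and 87217.7 to 88470.6 in Nestin-negative cells. The 18 measured of 23 markers of granule neuron differentiation had summed signals of 57981 to 70216 in Nestin-positive and 83877 to 95373 in Nestin-negative cells. Summed the same way, 9 of 14 microglia and macrophage markers (measured of listed) had 291 to 1094 in Nestin-positive and 2077 to 7925 in Nestin-negative cells, and all 4 Nestin-positive arrays had C1qc and Lyz2 under their median. Pericyte and smooth muscle markers (9 of 11) had 658 to 2133 in Nestin-positive and 1431 to 9798 in Nestin-negative cells. Meningeal fibroblast markers (5 of 8) had 1293 to 2847 in Nestin-positive and 2063 to 8577 in Nestin-negative cells. GABAergic interneuron markers (4 of 7) had 3081 to 4054 in Nestin-positive and 4456 to 5605 in Nestin-negative cells, and 0 of 5 red blood cell markers were measured. Endothelial markers (9 of 12) had 768 to 3139.6 in Nestin-positive and 1026 to 3318 in Nestin-negative cells. Astrocyte and Bergmann glia markers (12 of 12) had 10272 to 31618 in Nestin-positive and 8443 to 23864 in Nestin-negative cells. Oligodendrocyte lineage markers (5 of 8) had 5904 to 7719.8 in Nestin-positive and 6993 to 8163 in Nestin-negative cells. The sums of the microglia and of the GABAergic markers did not overlap between the fractions, and those of the other 5 measured types did. Most of the GABAergic sum was Lhx1, with 2649 to 3494 in Nestin-positive and 3490 to 4821 in Nestin-negative cells. Lhx1 itself overlapped and was not called by limma with the replicate number as a block (adjusted p = 0.0904). In that fit Gad1 and Tfap2b were called lower and Pvalb higher. Within same-numbered pairs the Nestin-positive sample had the lower sum in all 3 pairs for microglia, pericyte, meningeal, GABAergic and oligodendrocyte lineage markers, and in 2 of 3 for endothelial and astrocyte markers. With the replicate number as a block, limma called lower 9 of 9 microglia, 8 of 9 pericyte, 5 of 5 meningeal, 6 of 12 astrocyte, 2 of 4 GABAergic, 1 of 9 endothelial and 1 of 5 oligodendrocyte lineage markers, and higher 2 astrocyte, 2 oligodendrocyte lineage and 1 GABAergic marker. Over all genes 6.52% were called lower and 3.6% higher, so 1 called marker of a type says little about that type. The part of these other cells in the results below was not tested, and in sorted bulk samples fewer cells of a type and less RNA per cell cannot be told apart.

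Kinetochore, checkpoint and spindle genes had higher signals in Nestin-positive cells as a group, by a modest amount. Each of the 42 genes lay at or above the array median on all 7 arrays, as did 9851 of all 11089 genes tested. Of the 42, 40 had a positive log2 difference (45.5% of all genes did), and the median was 0.43 beside -0.03 over all genes. Without regard to replicate number, limma called 0 of the 42 after Benjamini-Hochberg adjustment over all genes (0.171% of all genes were called higher and 0.577% lower); adjusted p-values ran from 0.0692 for Zwilch to 0.964 for Zwint, and 28 of the 42 were higher and 0 lower at an unadjusted p under 0.05 (5.33% and 9.09% of all genes). With the replicate number as a block, 26 of the 42 rose and 0 fell, where 3.6% of all genes rose and 6.52% fell. Those 26 genes rose 1.25-fold (Incenp) to 1.62-fold (Cenpe), with adjusted p-values between 0.00119 and 0.0426. For 23 of the 42 genes every Nestin-positive array was above every Nestin-negative one, against 5.87% of all genes, and for 0 every one was below (9.11% of all genes). The block treats same-numbered samples as pairs, a pairing taken from these data and not stated in the labels.

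**Figure D1:**
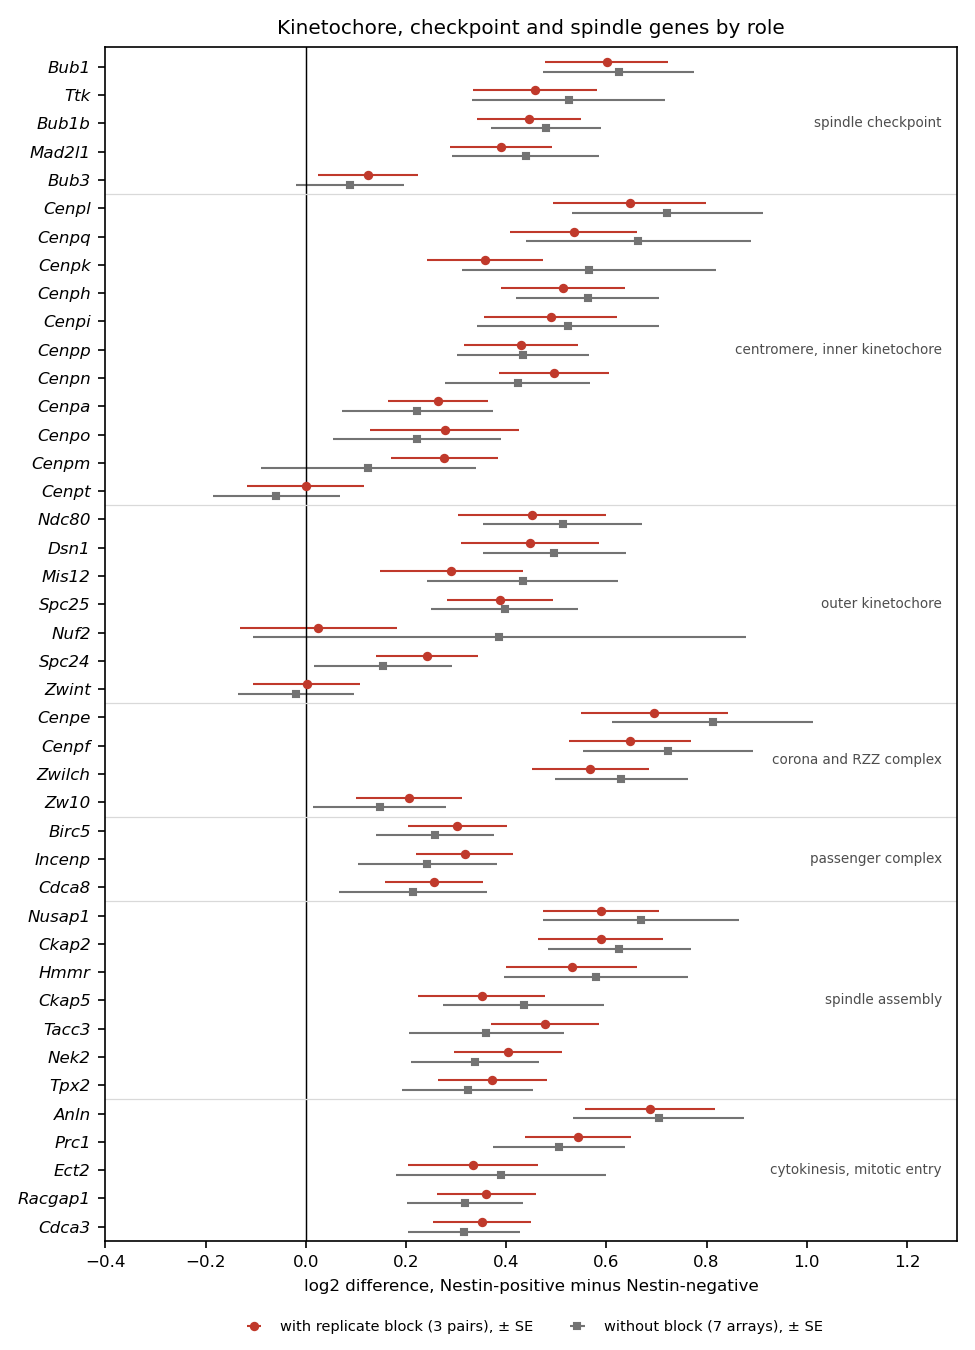
Log2 difference in MAS5 signal, Nestin-positive minus Nestin-negative, for each of the 42 genes, grouped by role and ordered by the difference over 7 arrays. Red circles are the fit with the replicate number as a block, grey squares the fit of all 7 arrays, and bars are SE; 40 of the 42 grey squares lie above 0, Cenpe highest and Cenpt lowest.

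The size of the difference varied between pairs. Within the pair of replicate 1 the median log2 difference of the 42 genes was 0.67, within that of replicate 4 it was 0.29 and within that of replicate 5 it was 0.35, whereas the medians over all genes were -0.03, -0.00 and -0.02. The signal was higher in the Nestin-positive sample for 38, 38 and 40 of the 42 genes in these pairs (46.1%, 49.4% and 46.9% of all genes). It was higher in all 3 pairs for 35 genes (19% of all genes). Nestin-negative replicate 1 was the lowest of the 7 arrays for 30 of the 42 genes (22.6% of all genes). Without it the median over the other 6 arrays was 0.35. In that limma fit 18 of the 42 genes were higher at an unadjusted p under 0.05, a count with no share over all genes beside it. Nestin-negative replicate 1 also had the highest summed signal of granule neuron differentiation markers, 95373, against 85709 and 83877 on Nestin-negative replicates 4 and 5. Of the 7 other cell types measured, it had the lowest sum of that fraction for 6, all but GABAergic interneurons. Pericyte and smooth muscle markers summed to 1431 on it, 7641 on replicate 4 and 9798 on replicate 5, meningeal fibroblast markers to 2063 on it, 8225 on replicate 4 and 8577 on replicate 5, endothelial markers to 1026 on it, 3139 on replicate 4 and 3318 on replicate 5, and astrocyte and Bergmann glia markers to 8443 on it, 23864 on replicate 4 and 23778 on replicate 5. Their part in the low signals of the 42 genes on that array was not tested. Without the pair of replicate 1, 6 of the 42 rose with the block (1.64% of all genes): Anln, Bub1b, Cenpf, Nusap1, Prc1 and Zwilch. The 26 genes called over 3 pairs included all 6. The count was 28 without pair 4 (5.11% of all genes) and 20 without pair 5 (2.8%), against 23 with a random block over all 7 arrays (2.62%) and 20 with the block after quantile normalization (2.43%). The random block lost the calls of Ttk, Incenp and Tpx2. Quantile normalization lost those of Ttk, Cenpi, Cenpp, Dsn1, Tpx2 and Nek2. Leaving out pair 4 lost Incenp, and leaving out pair 5 lost Bub1b, Spc25, Dsn1, Incenp, Nek2, Racgap1 and Cdca3.

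**Figure D2:**
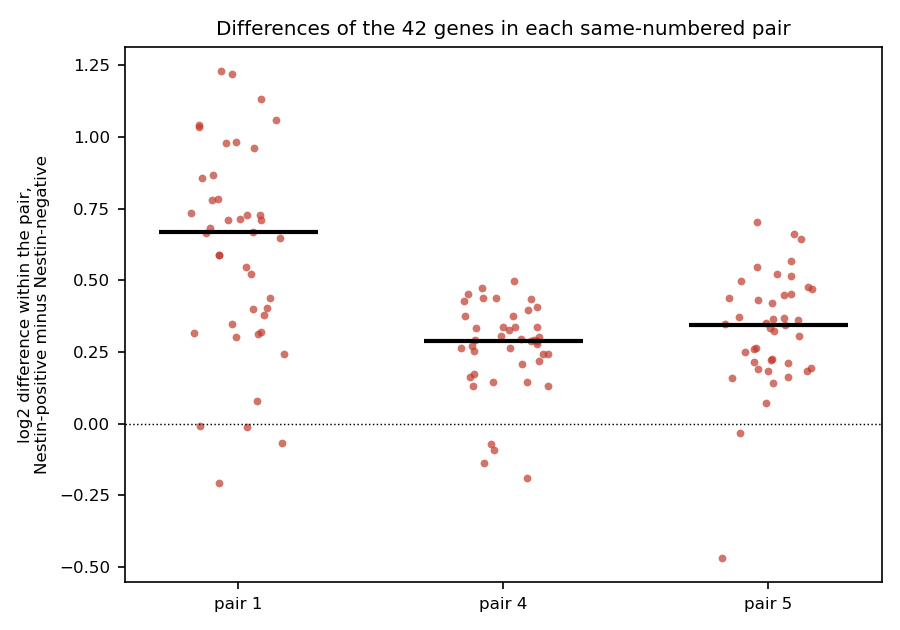
Log2 difference within each same-numbered pair, Nestin-positive minus Nestin-negative, for the 42 genes; each point is a gene and each black line the median. The medians are 0.67, 0.29 and 0.35, and few points lie below the dotted line at 0 in any pair.

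**Figure D3:**
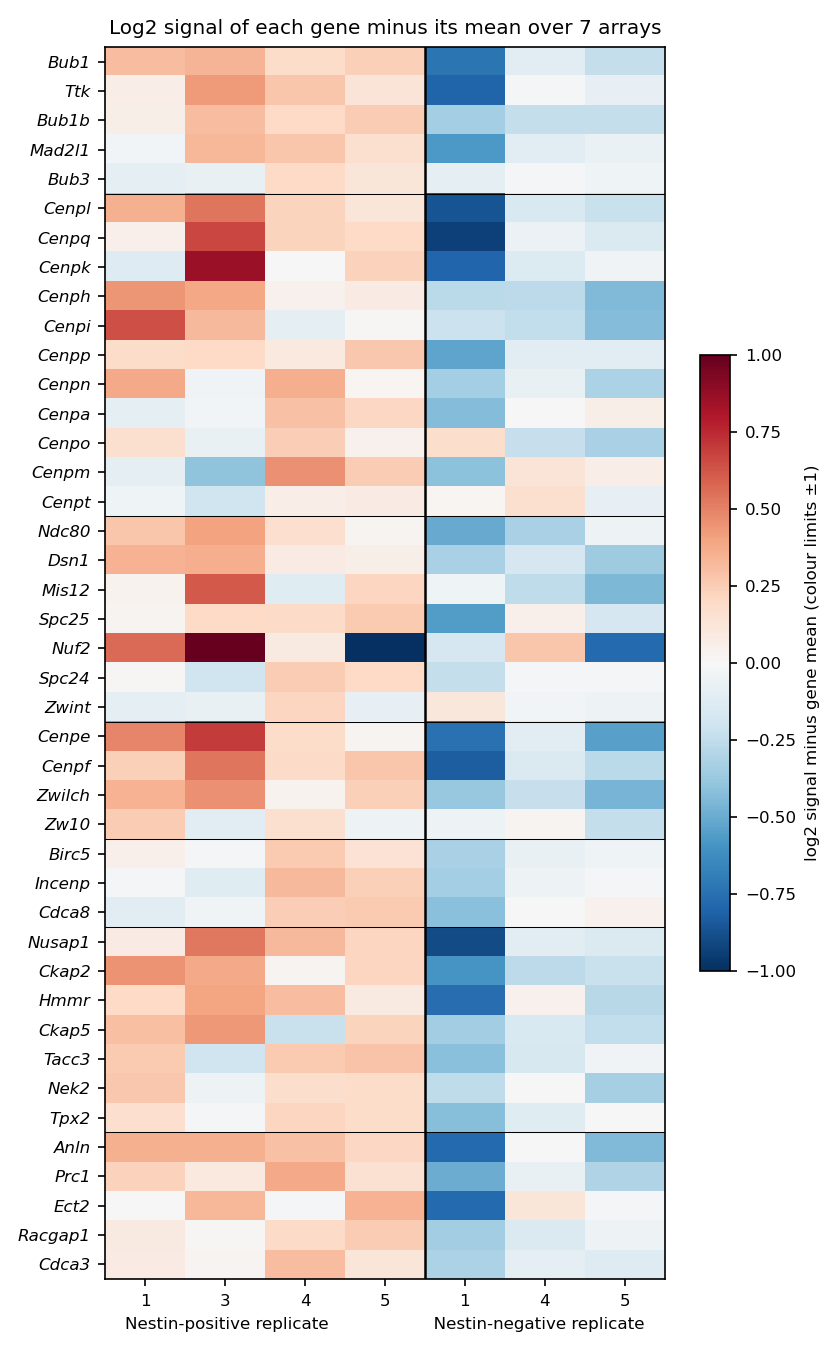
Log2 signal of each gene minus its mean over the 7 arrays, with Nestin-positive replicates 1, 3, 4 and 5 at the left and Nestin-negative replicates 1, 4 and 5 at the right. The deepest blue column is Nestin-negative replicate 1, the lowest array for 30 of the 42 genes.

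As 26 of these genes rose with the block, the promoters were searched for elements known from cell cycle genes, a search added after the values were seen. RefSeq windows on GRCm38.p6, from 250 bases before to 50 bases after a transcript start, were found for 38 of the 42 genes (43 windows). The cell cycle genes homology region, TTTGAA or TTCAAA on the other strand, is bound by the DREAM and MuvB complexes in genes of late cell cycle phases, and it was present in 22 of 43 windows (51.2%) against 17.9% of all 32851 windows. Within 50 bases of the start it was found in 16 of 38 genes (42.1%), against 5.72% of all genes with a window. The CCAAT box, CCAAT or ATTGG, the letters bound by NF-Y, was present in 31 of the 43 windows (72.1%; 37.4% of all windows), and the E2F letters TTTGGCGC or TTTCCCGC, searched on both strands, in 3 (6.98%; 1.56% of all windows). With the block, 10 of the 16 genes with TTTGAA near the start rose, and 13 of the 22 without it.

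Windows of 4 genes called with the block are shown first because they hold the element beside the start, followed by 2 genes whose fractions overlapped; all were picked after their values were seen. Capitals mark TTTGAA or TTCAAA and CCAAT or ATTGG. They are Cenpf at chr1:189688037-189688336 (minus strand), Ttk at chr9:83834439-83834738 (plus strand), Prc1 at chr7:80294201-80294500 (plus strand), Anln at chr9:22389157-22389456 (minus strand), Zwint at chr10:72654596-72654895 (plus strand) and Cenpt at chr8:105851959-105852258 (minus strand), each read 5′ to 3′ along its gene.
Cenpf: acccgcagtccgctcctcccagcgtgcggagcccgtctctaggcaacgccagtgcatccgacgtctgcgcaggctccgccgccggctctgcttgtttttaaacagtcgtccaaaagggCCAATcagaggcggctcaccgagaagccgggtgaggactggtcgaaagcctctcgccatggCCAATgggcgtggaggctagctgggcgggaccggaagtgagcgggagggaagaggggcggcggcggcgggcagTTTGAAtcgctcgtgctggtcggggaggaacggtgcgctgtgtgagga
Ttk: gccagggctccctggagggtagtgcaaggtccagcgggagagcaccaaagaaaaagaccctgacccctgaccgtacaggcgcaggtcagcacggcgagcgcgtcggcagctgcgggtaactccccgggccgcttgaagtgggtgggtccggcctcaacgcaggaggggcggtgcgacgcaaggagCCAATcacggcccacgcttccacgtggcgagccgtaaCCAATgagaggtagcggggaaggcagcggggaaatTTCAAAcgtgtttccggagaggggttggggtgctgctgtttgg
Prc1: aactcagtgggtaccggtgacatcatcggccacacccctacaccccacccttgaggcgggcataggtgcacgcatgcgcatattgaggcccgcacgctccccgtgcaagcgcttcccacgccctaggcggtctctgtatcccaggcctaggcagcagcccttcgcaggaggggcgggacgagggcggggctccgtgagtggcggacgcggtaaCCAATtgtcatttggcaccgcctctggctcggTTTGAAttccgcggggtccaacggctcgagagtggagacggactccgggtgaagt
Anln: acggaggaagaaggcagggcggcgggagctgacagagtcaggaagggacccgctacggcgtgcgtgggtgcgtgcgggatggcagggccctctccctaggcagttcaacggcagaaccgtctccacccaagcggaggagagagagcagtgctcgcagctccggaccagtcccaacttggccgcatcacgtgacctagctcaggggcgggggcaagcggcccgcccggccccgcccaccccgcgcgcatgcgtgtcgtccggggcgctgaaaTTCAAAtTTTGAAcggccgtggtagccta
Zwint: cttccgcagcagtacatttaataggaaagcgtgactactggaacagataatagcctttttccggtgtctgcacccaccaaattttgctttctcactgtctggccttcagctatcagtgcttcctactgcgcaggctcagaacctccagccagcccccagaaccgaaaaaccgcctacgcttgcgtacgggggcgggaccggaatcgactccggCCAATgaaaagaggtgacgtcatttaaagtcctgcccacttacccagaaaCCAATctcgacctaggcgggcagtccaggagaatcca
Cenpt: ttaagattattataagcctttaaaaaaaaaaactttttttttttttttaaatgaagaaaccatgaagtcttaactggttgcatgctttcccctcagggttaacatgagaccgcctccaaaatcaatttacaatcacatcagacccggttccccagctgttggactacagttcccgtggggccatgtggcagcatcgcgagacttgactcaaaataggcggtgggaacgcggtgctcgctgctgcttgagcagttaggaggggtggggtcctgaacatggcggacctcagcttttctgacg
Cenpf and Ttk each carry a pair of CCAAT boxes before a single homology element, and Prc1 has 1 of each. Anln has the element on both strands, at bases 22 and 29 of the transcript, and no CCAAT box. Zwint has a CCAAT box on either side of the start and no TTTGAA, and the Cenpt window holds neither. A match of letters does not show binding. The windows shown do not represent the whole set. Bub3, Cdca8, Cenpa, Ect2, Ckap5 and Ndc80 have the element within 50 bases of the start and were not called with the block. Cenpe, Cenph, Cenpi, Cenpq, Nek2 and Bub1 were called and have no TTTGAA in their windows.

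Among the 5 checkpoint genes, Bub1, Bub1b, Mad2l1 and Ttk rose with the block and Bub3 did not pass. Bub1, a kinase that builds the checkpoint platform on kinetochores, had signals of 3326, 3402, 3059 and 3166 in Nestin-positive cells, against 1622, 2494 and 2284 in Nestin-negative cells. Every Nestin-positive array was above every Nestin-negative one (log2 difference 0.60 ± 0.12 SE with the block, adjusted p = 0.00246; adjusted p = 0.0953 without it). Signals of Bub1b, which encodes the checkpoint protein BubR1, were 1836, 2179, 2022 and 2101 in Nestin-positive cells, against 1389, 1492 and 1489.9 in Nestin-negative cells. The pairs of replicates 1, 4 and 5 differed by 0.40, 0.44 and 0.50 on the log2 scale, and the rise was 1.36-fold (adjusted p = 0.00731). In a fit of all kept probe sets with the block this probe set passed (adjusted p = 0.0265). A second one for Bub1b, also without overlap, did not (0.34 ± 0.12 SE, adjusted p = 0.146). Ttk, the Mps1 kinase that starts checkpoint signalling, had 1581, 2031, 1829 and 1648 in Nestin-positive cells, against 867, 1493 and 1422 in Nestin-negative cells, and Mad2l1, whose product restrains the anaphase-promoting complex, had 5166, 6628, 6371 and 5878 in Nestin-positive cells, against 3536, 4844 and 5025 in Nestin-negative cells. Both were free of overlap, with rises of 1.37-fold and 1.31-fold (adjusted p = 0.0204 and 0.0159). The call of Ttk did not hold with the random block (adjusted p = 0.0615) or with the block after quantile normalization (adjusted p = 0.0704). Bub3, which carries Bub1 and BubR1 to kinetochores, had 7269, 7405, 8938 and 8437 in Nestin-positive cells, against 7309, 7688 and 7532 in Nestin-negative cells. The fractions overlapped, and the 95% interval of its log2 difference was -0.08 to 0.33 with the block (adjusted p = 0.523).

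Of 11 genes of centromeric chromatin and the inner kinetochore, 6 rose with the block: Cenph, Cenpi, Cenpl, Cenpn, Cenpp and Cenpq. They encode subunits of the constitutive centromere-associated network, which links centromeric chromatin to the outer kinetochore. Cenpl had signals of 779.6, 879, 709 and 663 in Nestin-positive cells, against 335, 546 and 521 in Nestin-negative cells. It rose 1.57-fold (log2 difference 0.65 ± 0.15 SE, adjusted p = 0.00801), with the 3 pairs at 1.22, 0.38 and 0.35. Cenpn, which with Cenpl reads the centromeric nucleosome, had 2275, 1709, 2257 and 1772 in Nestin-positive cells, against 1386, 1667 and 1405 in Nestin-negative cells and rose 1.41-fold (adjusted p = 0.00473). Cenph had 1000.4, 962, 759 and 779 in Nestin-positive cells, against 611, 614 and 542 in Nestin-negative cells, and Cenpi, of the same subcomplex, had 1210.2, 970.4, 729 and 779.6 in Nestin-positive cells, against 668, 651 and 572 in Nestin-negative cells. For both, Nestin-positive replicates 1 and 3 were the highest arrays, and the rises were 1.43-fold and 1.40-fold (adjusted p = 0.00925 and 0.0208). Cenpk, the partner of Cenph, had 1549.6, 3077, 1702 and 1987 in Nestin-positive cells, against 977, 1538 and 1655 in Nestin-negative cells, with replicate 3 well above the rest, and did not pass (0.36 ± 0.12 SE, adjusted p = 0.0538). Cenpq and Cenpp, of another subcomplex, rose 1.45-fold and 1.35-fold (adjusted p = 0.00802 and 0.017), whereas their companion Cenpo, at 287 to 427 over the 7 arrays, differed by 0.28 ± 0.15 SE (adjusted p = 0.291).

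Cenpa encodes the histone H3 variant that defines the centromere. Its signals were 4389.5, 4578, 5717 and 5372 in Nestin-positive cells, against 3450.3, 4641 and 4864 in Nestin-negative cells. The fractions overlapped, although the Nestin-positive sample was higher in all 3 pairs (0.26 ± 0.10 SE, adjusted p = 0.104). Cenpm differed by 0.28 ± 0.11 SE (adjusted p = 0.117). Cenpt, which carries the outer complex from the DNA side, had 808, 726, 873 and 880.4 in Nestin-positive cells, against 847, 931 and 787 in Nestin-negative cells. Its log2 difference was -0.06 ± 0.13 SE over 7 arrays, with a 95% interval of -0.34 to 0.23. With the block the interval was -0.24 to 0.24, so that a difference of either sign within that range is not excluded.

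In the outer kinetochore, 2 of 7 genes rose with the block, Spc25 and Dsn1. Spc25 belongs to the Ndc80 complex, the main microtubule coupler, and had signals of 3770.5, 4230.5, 4222 and 4423 in Nestin-positive cells, against 2511, 3815 and 3278 in Nestin-negative cells (1.31-fold, adjusted p = 0.0215). Nestin-positive replicate 1 lay just below Nestin-negative replicate 4. Dsn1, of the Mis12 complex that anchors it, had 588, 594, 489 and 482 in Nestin-positive cells, against 369.9, 410.2 and 360.1 in Nestin-negative cells, without overlap (1.36-fold, adjusted p = 0.0426; the gene nearest the threshold among the 26). Ndc80 itself had 567, 617, 526 and 475 in Nestin-positive cells, against 329, 372 and 452 in Nestin-negative cells. These groups did not overlap either, but the pairs differed by 0.78, 0.50 and 0.07, and the adjusted p was 0.0565. The other subunits of the Ndc80 complex did not pass. Spc24 differed by 0.24 ± 0.10 SE (adjusted p = 0.153). Nuf2 had 2226, 3568, 1596 and 633 in Nestin-positive cells, against 1338, 1821 and 876 in Nestin-negative cells. It was lowest on replicate 5 of both fractions, it was lower in the Nestin-positive sample of pairs 4 and 5, and its 95% interval over 7 arrays was wide (-0.71 to 1.49; 0.03 ± 0.16 SE with the block). Mis12 differed by 0.29 ± 0.14 SE (adjusted p = 0.235). Zwint, which links the outer kinetochore to the checkpoint complex of Zw10, had 3220.2, 3260.4, 3987 and 3234 in Nestin-positive cells, against 3713, 3369 and 3305 in Nestin-negative cells. The groups overlapped throughout, with a 95% interval of -0.28 to 0.24 over 7 arrays (adjusted p = 0.964). Of its 6 kept probe sets 4 had a positive difference, and one of these had 1352, 1537, 1220.1 and 1373 in Nestin-positive cells, against 1138, 1194 and 1132 in Nestin-negative cells, without overlap, but did not pass in the probe set fit with the block (0.19 ± 0.11 SE, adjusted p = 0.473).

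Genes of the fibrous corona and of the Rod, Zwilch and Zw10 complex had the largest median log2 difference of the 7 roles (0.68, 4 genes), and 3 of the 4 rose with the block. Cenpe, a kinesin that carries chromosomes to the spindle equator, had 1094, 1268, 888 and 797 in Nestin-positive cells, against 467, 725 and 538 in Nestin-negative cells. All 4 Nestin-positive arrays exceeded the Nestin-negative ones, and the rise was 1.62-fold (log2 difference 0.70 ± 0.15 SE, adjusted p = 0.0032). Its second probe set, with 899, 1217, 785 and 647 in Nestin-positive cells, against 423, 349 and 528 in Nestin-negative cells, rose by 0.85 on the log2 scale in a fit of all probe sets with the block (adjusted p = 0.00993). Cenpf, a large coiled-coil protein of the corona that builds up in G2, had 2974, 3667, 2881 and 3053 in Nestin-positive cells, against 1428, 2283 and 2090.5 in Nestin-negative cells. It rose 1.57-fold (adjusted p = 0.00119), the smallest p among the 42. Zwilch had 1669, 1796, 1346 and 1545 in Nestin-positive cells, against 1007, 1114 and 949 in Nestin-negative cells. This gene rose 1.48-fold (adjusted p = 0.00268), and it was the 1 gene called without a block when Nestin-positive replicate 4 was left out (0.153% of all genes). Zw10, which also takes part in membrane traffic, had 1747, 1357, 1641 and 1414 in Nestin-positive cells, against 1418, 1497 and 1244 in Nestin-negative cells, overlapping between the fractions (0.21 ± 0.11 SE, adjusted p = 0.268).

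The chromosomal passenger complex corrects faulty attachments and positions the Aurora B kinase. Its 3 genes had small differences that were positive in all 3 pairs. Incenp, the scaffold, had 5982, 5593, 7591 and 7164 in Nestin-positive cells, against 4804, 5854 and 5981 in Nestin-negative cells and rose 1.25-fold with the block (adjusted p = 0.0417; adjusted p = 0.481 without it). That brightest Incenp probe set is of a type that may also detect other transcripts. A second one had 1619, 1399.7, 1466 and 1502 in Nestin-positive cells, against 959, 1008 and 968 in Nestin-negative cells, without overlap, and rose by 0.64 ± 0.11 SE in the probe set fit with the block (adjusted p = 0.0048). In that fit the brightest probe set did not pass (adjusted p = 0.0866), so that the probe sets disagree on the size of the rise. Birc5, or survivin, had 4475, 4241, 5179 and 4766 in Nestin-positive cells, against 3442, 4098 and 4174 in Nestin-negative cells. The groups did not overlap, but the gene did not pass (0.30 ± 0.10 SE, adjusted p = 0.0575), nor did Cdca8, or borealin (0.26 ± 0.10 SE, adjusted p = 0.107).

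Of 7 spindle assembly genes, 6 rose with the block, all but Ckap5. Nusap1, which bundles spindle microtubules near chromatin, had 3911, 5325, 4613 and 4270.4 in Nestin-positive cells, against 1985, 3410.2 and 3344 in Nestin-negative cells. It rose 1.50-fold (log2 difference 0.59 ± 0.12 SE, adjusted p = 0.00186). Ckap2, a spindle pole protein, had 3061, 2912, 2277 and 2602 in Nestin-positive cells, against 1487, 1865 and 1920.2 in Nestin-negative cells, and rose 1.50-fold (adjusted p = 0.00336). Neither gene had overlapping groups. Hmmr, which helps to focus spindle poles, had 1129, 1289.8, 1216 and 1047 in Nestin-positive cells, against 579, 1012 and 812 in Nestin-negative cells, and rose 1.44-fold (adjusted p = 0.011). Tacc3, which with clathrin and Ckap5 crosslinks kinetochore fibres, had 2319.7, 1689, 2322 and 2360.5 in Nestin-positive cells, against 1446, 1728 and 1887 in Nestin-negative cells. Nestin-positive replicate 3, which has no partner in the block, lay below Nestin-negative replicates 4 and 5, and the rise over the pairs was 1.39-fold (adjusted p = 0.00561). Tpx2, the activator of Aurora A, and Nek2, a kinase that separates centrosomes, rose 1.29-fold and 1.32-fold (adjusted p = 0.0322 and 0.0187), with Nestin-positive replicate 3 of each inside the Nestin-negative range. In the probe set fit with the block neither passed (adjusted p = 0.086 and 0.0588). There a second Tpx2 probe set of similar brightness, overlapping between the fractions, differed by 0.21 ± 0.11 SE (adjusted p = 0.361). A second Nek2 probe set had no overlap but did not pass (0.38 ± 0.14 SE, adjusted p = 0.157). Ckap5, a microtubule polymerase also used outside mitosis, had 1639, 1802, 1143 and 1557 in Nestin-positive cells, against 1047, 1199 and 1119.9 in Nestin-negative cells. Nestin-positive replicate 4 was below its partner, and the gene did not pass (0.35 ± 0.13 SE, adjusted p = 0.0879).

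Of the 5 remaining genes, 4 rose with the block: Prc1, Racgap1, Anln and Cdca3. Anln encodes anillin, which organises the contractile ring, and had 2088, 2082, 1999 and 1881 in Nestin-positive cells, against 953, 1637 and 1204 in Nestin-negative cells. The Nestin-positive arrays were close together and the Nestin-negative ones spread widely, with pairs differing by 1.13, 0.29 and 0.64 (1.61-fold, adjusted p = 0.00126). Prc1, which bundles antiparallel microtubules of the central spindle, had 2255, 2059, 2499.9 and 2137 in Nestin-positive cells, against 1362, 1827 and 1562 in Nestin-negative cells (1.46-fold, adjusted p = 0.00177). Racgap1, a subunit of centralspindlin, had 3381, 3198, 3626 and 3797 in Nestin-positive cells, against 2495, 2872 and 3068 in Nestin-negative cells, and Cdca3, an adaptor for degradation of the mitotic inhibitor Wee1, had 4883, 4701, 5712 and 5009.6 in Nestin-positive cells, against 3704, 4313 and 4209 in Nestin-negative cells. Both were free of overlap, with rises of 1.28-fold for Racgap1 and 1.28-fold for Cdca3 (adjusted p = 0.0228 and 0.0251). Ect2, the exchange factor that activates RhoA at the division plane, had 3017, 3789.6, 2980.2 and 3839 in Nestin-positive cells, against 1759, 3279.9 and 2986 in Nestin-negative cells. Nestin-negative replicate 1 was far below the other arrays, the groups overlapped otherwise, and the gene did not pass (0.33 ± 0.13 SE, adjusted p = 0.116).

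**Figure D4:**
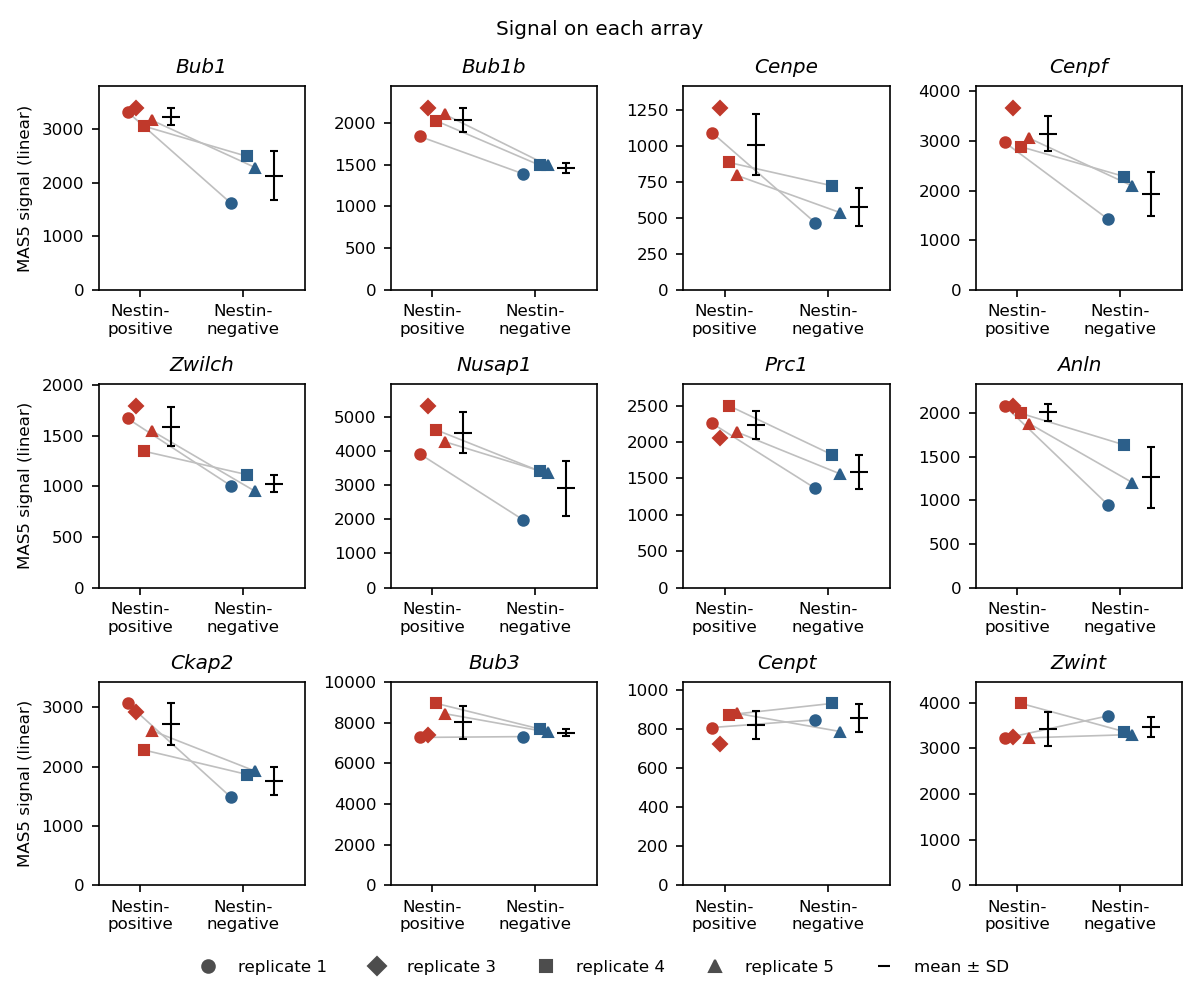
MAS5 signal on a linear axis for 9 genes called with the block and for Bub3, Cenpt and Zwint, which were not. Red symbols are Nestin-positive and blue symbols Nestin-negative arrays, symbol shape gives the replicate, grey lines join same-numbered samples and black marks are mean ± SD (n = 4 and 3); the fractions do not overlap in the first 9 panels and do in the last 3.

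Most of the brighter probe sets of these genes had the same direction. Of the 83 at or above the array median on at least 3 arrays, 79 had a positive log2 difference and 4 a negative one, namely 1 of Bub3, 1 of Cenpt and 2 of Zwint. Among the 41 that did not stand for their gene, 39 were positive, but they come from the same arrays and are no independent check. In 15 of the 41 (36.6%, against 30.4% of all such probe sets) replicate 1 was highest in both fractions. That held for 1 of the 42 that stood for their gene (2.38%, against 14.7% of all genes). In a fit of all kept probe sets with the block, 20 of the 83 rose (1.31% of all probe sets) and 0 fell (3.13%). The 5 among them that did not stand for their gene belong to Cenpe, Cenpn, Incenp, Prc1 and Tacc3. Some of the 26 gene calls were lost in that fit on the same probe sets, with adjusted p-values from 0.0513 to 0.11. These were the calls of Ttk, Cenpi, Cenpp, Spc25, Dsn1, Hmmr, Racgap1, Cdca3, Incenp, Tpx2 and Nek2. The 19 below the filter scattered on either side of 0, with 8 negative. A single probe set represents 16 of the 42 genes.

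**Figure D5:**
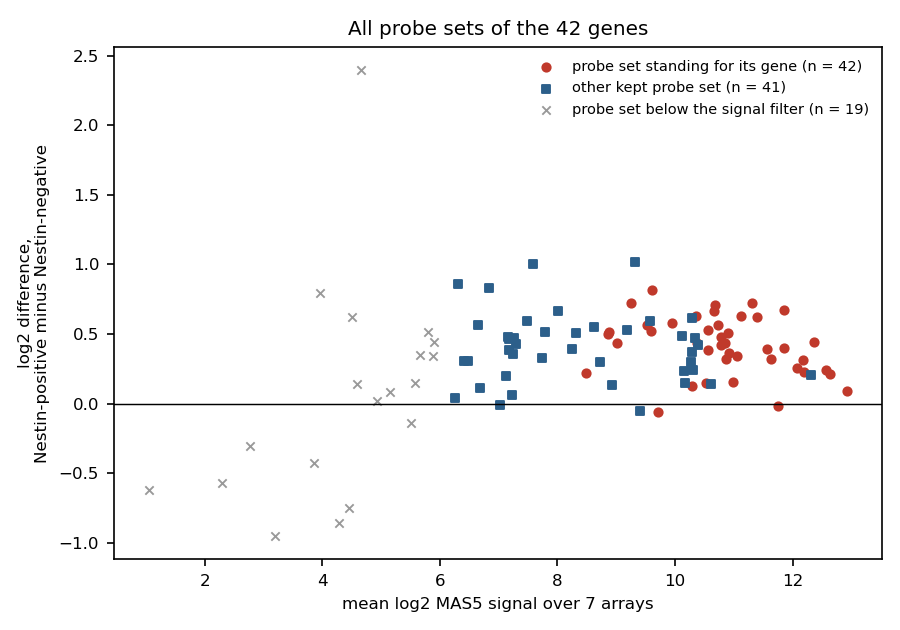
Log2 difference, Nestin-positive minus Nestin-negative, against mean log2 MAS5 signal for the 102 probe sets of the 42 genes. Probe sets that stand for a gene (red) and other kept probe sets (blue) lie above 0 in 79 of 83 cases, and those below the signal filter (grey crosses) scatter widely.

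Other genes of the kinetochore and spindle also had higher signals in Nestin-positive cells. From a list of 65 that holds none of the 42, 60 were measured, with a median log2 difference of 0.34. Limma called 0 of them without the block (27 higher at an unadjusted p under 0.05), and 25 rose and 0 fell with it (41.7%, against 3.6% of all genes). The 5 with the smallest p-values over 7 arrays were Kif4, a chromosome-bound kinesin (0.48 ± 0.12 SE with the block, adjusted p = 0.0134), Kif20a, a kinesin of the central spindle (0.59 ± 0.12, 0.00268), Spag5, or astrin (0.50 ± 0.11, 0.00583), Knl1, the kinetochore scaffold that recruits Bub1 (0.57 ± 0.13, 0.0080) and Ska3, of the microtubule-tracking Ska complex (0.62 ± 0.16, 0.0157). Without the pair of replicate 1, 3 of the 60 rose (1.64% of all genes).

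General proliferation genes were set beside them on the same arrays. The 16 measured of 17 listed had a median log2 difference of 0.21, beside -0.03 over all genes. With the block 5 rose (31.25%, against 3.6% of all genes), among them Mki67 (0.38 ± 0.10 SE, adjusted p = 0.0191) and Top2a (0.49 ± 0.10 SE, adjusted p = 0.00231). The 6 genes of the replicative helicase, Mcm2 to Mcm7, lay between -0.03 and 0.22. The difference between these genes and the 42 was not tested.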

How the data were processed

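Total RNA of sorted granule neuron precursors was measured on Affymetrix 430 2.0 mouse arrays, 1 sample per array. The authors deposited MAS5 signal, a linear intensity per probe set, per the submitters' processing notes; no scanner data or detection calls were used here, and the number of arrays limits precision. Of 45101 probe sets, 64 controls were left out, and 34945 had 1 gene in the platform annotation, 932 several and 9160 none. The deposited signal was taken to log2 with no pseudocount. Probe sets at or above the array median on at least 3 arrays were kept, the brightest stood for its gene, and 11089 genes were fitted without a block (R 4.3.3, limma 3.58.1, moderated variances with an intensity trend). Tests were two-sided, with Benjamini-Hochberg adjustment over all genes and a threshold of 0.05. The same script was tested on simulated data.

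Replicate numbers 1, 4 and 5 occur in both fractions. Deviations from the group mean correlated at 0.71, 0.39 and 0.47 between same-numbered samples and at -0.60 to 0.19 between the others. Within a fraction these deviations cancel out, so a positive correlation with a partner lowers those with the other samples. Part of the contrast was thus fixed in advance, and it cannot establish the pairing. The numbers were taken as pairs, although the labels do not state a shared animal or day. The fit with the replicate number as a block used the 6 paired arrays. It has 2 residual degrees of freedom per gene, and 20.2 in all after moderation (9.78 without the block).

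The genes and lists were chosen with earlier results of these data known. All 42 genes are named; values per array are given by role for those with the smallest p-values and the smallest differences, and for others chosen after their values were seen. Of the other kinetochore and spindle genes, the 5 with the smallest p-values are named. Alternatives were quantile normalization, other filters, a floor at the array median, the mean of probe sets, fits per probe set, no trend, a fixed or random block, and each replicate or pair left out. Promoter windows came from RefSeq (GRCm38.p6). Those of Incenp, Spc24, Tpx2 and Zwilch were not used here.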

Additional observations from a re-analysis of the deposited data

Results flagged for a closer look

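In 2 of 42 genes, 1 of the 4 Nestin-positive arrays stood far from the other 3, with a gap above Dixon's 95% critical value for 4 samples. Chance gives about 1 such group in 20. For Zwint, Nestin-positive replicate 4 had a signal of 3987, above the other Nestin-positive arrays by a gap of 0.942 of the range. For Tacc3, Nestin-positive replicate 3 had a signal of 1689, below the others by a gap of 0.948 of the range. That sample has no partner among the Nestin-negative ones and does not enter the block, in which Tacc3 rose.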

How the results depend on the processing

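Without a block, limma called 0 of the 42 genes under quantile normalization, no filter, a stricter filter, a floor at the array median, the mean of probe sets, fits per probe set and no intensity trend, and 0 to 1 with a replicate left out (Zwilch, without Nestin-positive replicate 4). With the replicate block 26 were called, 23 with a random block and 20 with the block after quantile normalization. Leaving out a pair gave 6 (without pair 1) to 28 (without pair 4), with 20 without pair 5. The counts of the 60 other kinetochore and spindle genes were 0 without a block, 25 with it, 20 with the random block, 15 with the block after quantile normalization, and with the block 3 (without pair 1), 28 (without pair 4) and 22 (without pair 5). The median log2 difference of the 42 genes was 0.35 (without Nestin-negative replicate 1) to 0.50 with a replicate left out, and 0.31 (without pair 1) to 0.51 with a pair left out of the block. Leaving out arrays also leaves fewer samples, and no other cause was tested.

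Over 20 alternatives, 702 of 840 values per gene kept their direction and side of the threshold, 124 kept the direction and passed, and 14 turned direction. Zwint turned to 0.00 with the block, 0.18 as the mean of probe sets, -0.09 to 0.03 with a replicate left out, and 0.11 and 0.02 with the block without pairs 1 and 5. Cenpm ran from -0.04 to 0.28 with a replicate left out, and was below 0 when that was Nestin-positive replicate 4 (-0.01) or Nestin-negative replicate 1. Cenpt ran from -0.12 to 0.00 with a replicate left out, and was 0.03 and 0.05 with the block without pairs 1 and 4. Nuf2 turned to -0.33 with the block without pair 1. The cause was not tested. Limits are 7 arrays, a pairing that the labels do not state, and MAS5 signal that was not reprocessed.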

Other observations

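Within the Nestin-positive fraction the 42 genes did not share 1 order of arrays. Replicates 1 and 3 were both above replicates 4 and 5 for 12 genes (28.6%, against 15.5% of all genes): Bub1, Cenph, Cenpi, Cenpl, Ndc80, Nuf2, Dsn1, Cenpe, Zwilch, Ckap2, Ckap5 and Anln. Replicates 4 and 5 were both above 1 and 3 for another 12 (28.6%, against 33.3% of all genes): Bub3, Cenpa, Cenpm, Cenpt, Spc24, Incenp, Birc5, Cdca8, Tpx2, Tacc3, Racgap1 and Cdca3. The 3′ to 5′ signal ratios of the beta-actin and Gapdh control probe sets were 1.68 to 1.90 and 1.09 to 1.36 in Nestin-positive cells, against 1.74 to 1.99 and 1.15 to 1.38 in Nestin-negative cells. The part of RNA quality in the results was not tested.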
